A study of Mus musculus with 18 samples.

Results

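The change in the high to low polysome ratio on loss of DGCR8 was measured in mouse embryonic stem cells (ESCs). It compares, gene by gene, how a transcript was divided between the high and the low polysome fraction of Dgcr8 knockout (KO) cells with how it was divided in wild-type (WT) cells, that is (KO high minus KO low) minus (WT high minus WT low) on the log2 scale. Of the 18 libraries of the series, 12 enter this difference, in 4 groups of 3, namely WT low polysome, WT high polysome, KO low polysome and KO high polysome, while the other 6 are monosome libraries. WT cells were V6.5 ESCs, and the Dgcr8 KO cells were 1 ESC line made in earlier work, so that the genotype and that line cannot be told apart. All cells received 100 ug/ml cycloheximide for 2 min before lysis, and lysates were run on sucrose gradients of 10 to 50%. The low fraction held messages with 2 to 4 ribosomes and the high fraction those with 4 or more. The 3 fractions of a gradient carry the same replicate number. Since the labels do not say that replicates were separate cultures, p-values may measure only technical spread between these samples. Levels of single genes are in CPM, counts scaled to the library total after its adjustment by a trimmed-mean (TMM) factor. Genes with at least 3 CPM in at least 3 libraries were tested, 12851 of the 51467 genes in the table.

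During translation several ribosomes follow each other along a message, and sucrose gradients separate messages by the number they carry. Cycloheximide stops ribosomes on the message before lysis. A message moves to heavier fractions when more ribosomes start on it, when its coding sequence (CDS) is longer, or when ribosomes take longer to leave it. DGCR8 is the RNA-binding partner of the nuclease DROSHA, and the pair cuts primary microRNA transcripts in the nucleus. Cells without DGCR8 lack canonical microRNAs, which in ESCs are dominated by the miR-290 and miR-302 families. These ESC-enriched cell cycle (ESCC) microRNAs share a seed, the stretch that pairs with target sites in 3′ untranslated regions (UTRs), and act through Argonaute and TNRC6 proteins to repress translation and shorten the life of messages.

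The microRNAs that DGCR8 is needed to make are shown because the comparison asks what their loss does to ribosome loading. Their mature sequences, from RefSeq on GRCm38.p6, are given 5′ to 3′ with bases 2 to 8, the seed, in capitals. 2 members of the miR-290 cluster on chromosome 7 and 2 of the miR-302 cluster on chromosome 3 come first, followed by 2 more of the former whose last seed base differs.
miR-291a-3p: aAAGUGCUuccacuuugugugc
miR-294-3p: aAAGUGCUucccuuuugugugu
miR-302b-3p: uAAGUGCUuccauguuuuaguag
miR-302d-3p: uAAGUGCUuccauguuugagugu
miR-290a-3p: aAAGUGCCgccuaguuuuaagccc
miR-291b-3p: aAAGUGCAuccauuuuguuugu
The first 4 share the seed AAGUGCU, as does miR-295-3p, and its perfect site in a message is AGCACTTA when an A follows the seed match. The miR-290 cluster members lie at chr7:3218968-3218989 (miR-291a-3p), chr7:3220691-3220712 (miR-294-3p), chr7:3218674-3218697 (miR-290a-3p) and chr7:3219529-3219550 (miR-291b-3p), all on the plus strand. Those of the miR-302 cluster lie at chr3:127545275-127545297 (miR-302b-3p) and chr3:127545665-127545687 (miR-302d-3p), also on the plus strand.

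Depth was 2847570 to 3840124 counts a library in low polysomes and 2495249 to 4984833 in high polysomes. Within groups, Spearman's rho of levels across genes was 0.977 to 0.987, and every pair differed by more than sampling noise (chi-square per gene 2.44 to 7.48). One library stood apart. In KO low polysome replicate 1, 19 genes with 20 or more counts lay over 4-fold above both other libraries of the group, against 0 or 1 gene in each of the other 11 libraries. Among them were the embryonic globin gene Hbb-y, with 1382 counts against 26 and 27, the imprinted RNA H19, with 502 against 13 and 24, and Lin28a, with 48 against 4 and 6. Col3a1, a fibroblast collagen, had 28 counts against 0 and 0. Without that library, a choice made after seeing the data, 640 genes were called in place of 666, 286 higher and 354 lower, and 511 of the 666 calls were shared. Its part in the results was not tested, and values without it are given where it ends a call or moves a group's count of calls by over 1.5 times.

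The labels were checked against defining genes. Summed over 18 naive pluripotency genes, levels were 4984 to 7881 CPM in all 12 libraries. This sum and the marker sums that follow were scaled to library totals alone. The 8 fibroblast markers summed to 2.61 to 23.1 CPM, with both ends of this range in KO cells, the 6 primitive endoderm markers to 3.36 to 11.5 CPM and the 5 trophoblast markers to 103.9 to 183.8 CPM. Dgcr8 (ENSMUSG00000022718, chromosome 16, 18253948 to 18289246, minus strand, GRCm38) kept reads in KO cells, at 39, 58.6 and 42 CPM in low and 14.6, 23 and 8.73 CPM in high polysomes, against 51.8, 70.0 and 66.5 and 26.1, 27.4 and 29.6 CPM in WT. The libraries read 3′ ends, so a deletion elsewhere in the gene is not tested by these counts. Its high to low ratio did not pass the test (log2 change -0.56, SE 0.29, adjusted p = 0.191). The same holds for Ddx6, a helicase of messenger ribonucleoproteins that acts downstream of microRNAs, at 187, 194 and 203 CPM in WT low and 222, 242 and 239.5 in WT high polysomes and 184, 190.0 and 202 and 222, 207 and 199 in KO (log2 change -0.15, SE 0.15, adjusted p = 0.563). In bulk fractions, fewer cells that carry a transcript and less of it per cell cannot be told apart.

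Ribosome loading within polysomes changed at 666 genes. Relative to WT, the high to low ratio was higher in KO cells at 294 genes and lower at 372, which is 5.18% of the genes tested, 2.29% higher and 2.89% lower (limma, adjusted p under 0.05 and an absolute log2 change over 1). At the adjusted p alone, 2288 genes (17.8%) passed, 967 higher and 1321 lower. Genes that rose leaned to the low fraction in WT and to the high fraction in KO cells, with a median log2 ratio of -0.50 in WT and 0.83 in KO. Genes that fell did the reverse, at 0.70 and -0.55. In all 12851 genes, the median ratio was -0.01 in WT and -0.11 in KO, and the middle 50% of changes lay between -0.47 and 0.39 (median -0.05). Of the 294 and 372 genes, 289 and 353 had all 3 KO gradients beyond all 3 WT gradients. Of all genes tested, 16.1% had this separation upwards and 18.4% downwards. Calls were made on the same libraries, so the separation and the medians of called genes follow in part from how these genes were selected. In 18 of the genes that rose and 7 that fell, all libraries of some group held 3 counts or fewer, so that their size is only bounded. How the calls divide by direction rests on the scale chosen. Scaling by library totals rather than by trimmed means (TMM) moved the all-gene median by -0.20 and gave 122 genes higher against 844 lower. With DESeq2 size factors 342 were higher and 318 lower. All changes below are therefore relative to the TMM scale.

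**Figure D1:**
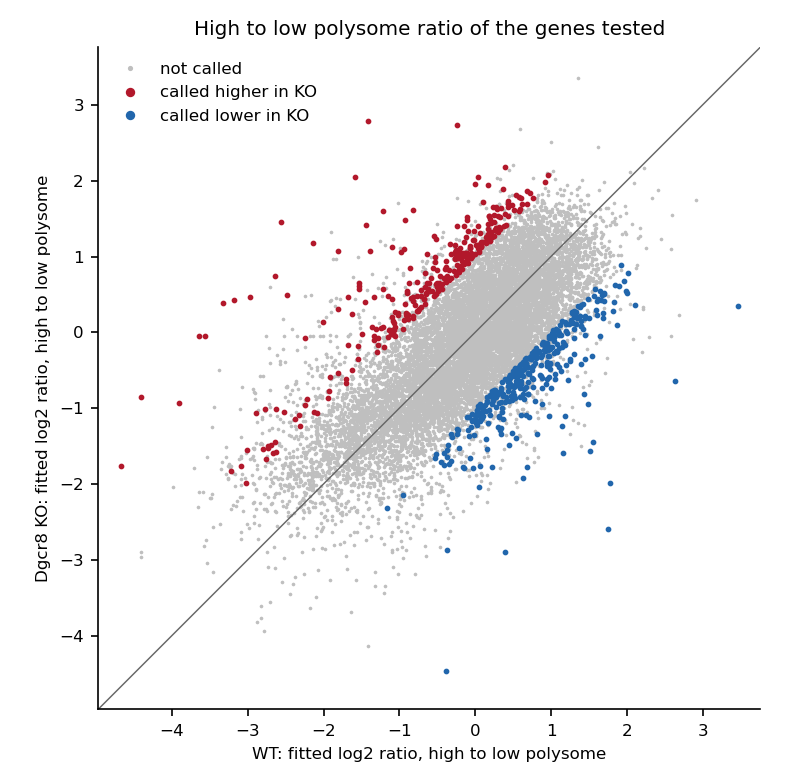
Fitted log2 high to low polysome ratio of each of 12851 genes in Dgcr8 KO (vertical) against WT (horizontal), with the line of equal ratios. The 294 genes called higher in KO (red) lie above the line, from a median WT ratio of -0.50 to a KO ratio of 0.83, and the 372 called lower (blue) lie below it, from 0.70 to -0.55.

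Among well-counted genes, those that moved furthest toward the high fraction included Npr1, Psmb10 and Atg2a. The 12 genes of each direction named next had the largest changes among called genes with a mean of 50 or more counts and with all KO gradients beyond all WT gradients, so that this separation is part of how they were chosen. Atg2a (ENSMUSG00000024773, chromosome 19, 6241668 to 6262335, plus strand), which hands lipids to the growing autophagosome, had 64.9, 60.5 and 74.4 CPM in WT low, 28.9, 20.9 and 29.6 in WT high, 87.3, 117 and 96.7 in KO low and 131, 114 and 172 in KO high polysomes. In WT each low library lay above every high one, whereas in KO the ranges overlapped, and KO high polysomes held more than any WT library (log2 change 1.80, SE 0.23, adjusted p = 1.2e-06). Npr1 (ENSMUSG00000027931, chromosome 3, 90450591 to 90465866, minus strand), the receptor guanylyl cyclase for atrial natriuretic peptide, had 49.4, 37.7 and 28.9 CPM in WT low, 17.2, 11.2 and 11.5 in WT high, 23.7, 19.9 and 26.3 in KO low and 41.3, 30.4 and 36.1 in KO high polysomes. The order of the fractions turned in all gradients (log2 change 2.14, SE 0.29, adjusted p = 2.84e-06). Psmb10 (ENSMUSG00000031897, chromosome 8, 105935735 to 105938444, minus strand), a catalytic subunit of the immunoproteasome, had like levels in the low polysomes of WT (27.1, 29 and 29.5 CPM) and KO (32, 32.7 and 28.1 CPM). In high polysomes it had 12.5, 6.49 and 6.69 CPM in WT and 41.7, 34.8 and 38.4 CPM in KO, ranges that did not overlap (log2 change 2.12, SE 0.29, adjusted p = 4e-06). Tenm4 (ENSMUSG00000048078, chromosome 7, 96171246 to 96911093, plus strand), a teneurin adhesion receptor, had 54.3, 50.5 and 47.3 CPM in WT low, 50.7, 39.3 and 47.5 in WT high, 139, 152 and 137 in KO low and 328, 328 and 489 in KO high polysomes. The fractions overlapped in WT, and in KO both were above WT, the high one by more (log2 change 1.55, SE 0.22, adjusted p = 4.96e-06).

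E2f1 and Tmem242 reached a higher ratio in another way. E2f1 (ENSMUSG00000027490, chromosome 2, 154559407 to 154569892, minus strand), a transcription factor of genes for entry into S phase, had 376, 368 and 428 CPM in WT low, 53.4, 55.1 and 82.8 in WT high, 147, 130.4 and 143 in KO low and 67.8, 69.6 and 70.5 in KO high polysomes. It lost level in the low fraction (KO against WT log2 change -1.48, adjusted p = 5.1e-13), while the high fraction gave 0.14 (adjusted p = 0.426). The ratio rose by 1.61 (SE 0.19, adjusted p = 5.56e-07) and still favoured the low fraction in KO, with per-gradient log2 ratios of -1.10, -0.90 and -1.01 against -2.80, -2.72 and -2.36 in WT. Tmem242, a membrane protein, likewise had 93.1, 92.9 and 81.3 CPM in WT low, 15.2, 11.5 and 9.87 in WT high, 19.1, 27.6 and 24.7 in KO low and 11.2, 9.63 and 12.4 in KO high polysomes (log2 change 1.82, SE 0.29, adjusted p = 2.15e-05). Its ranges in high polysomes overlapped between genotypes, and those in low polysomes did not.

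The other 6 higher genes were Tnks1bp1, a tankyrase-binding protein, Ggcx, the vitamin K-dependent carboxylase, Ints1, a subunit of Integrator, Celsr2, a cadherin of planar cell polarity, Rasa2, a Ras GTPase activator, and Sec16a, a scaffold of exit sites of the endoplasmic reticulum. Their log2 changes were 2.04, 1.78, 1.67, 1.63, 1.53 and 1.52 in that order, with SEs of 0.27 to 0.38 and adjusted p-values of 3.27e-05 to 0.000903. In high polysomes the KO against WT log2 change of the 6 was 1.31 to 1.93, and in low polysomes -0.36 to 0.39. Tnks1bp1, for instance, had 7.41, 11.5 and 9.55 CPM in WT high and 34.7, 24.5 and 40.9 CPM in KO high polysomes. Over the fits without 1 gradient, the changes of all 12 genes lay between 1.25 and 2.43, and each kept its call.

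**Figure D2:**
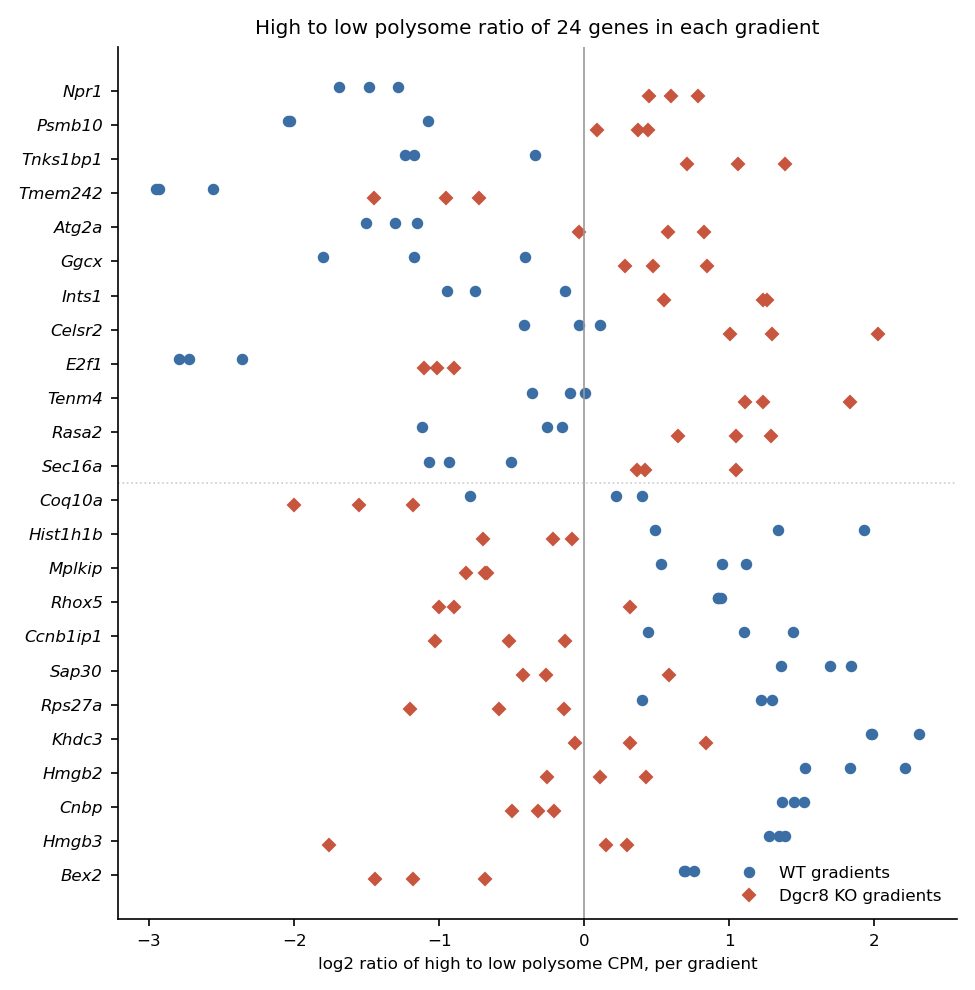
Log2 ratio of high to low polysome CPM in each of the 3 WT gradients (circles) and 3 KO gradients (diamonds) for the 12 genes in each direction with the largest changes among called genes with a mean of 50 or more counts and separate genotypes, sorted by change. The KO points of Npr1 lie between 0.45 and 0.79 and its WT points between -1.69 and -1.28, while those of Cnbp lie between -0.50 and -0.21 in KO and between 1.36 and 1.52 in WT.

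Under the same rule, those that moved furthest toward the low fraction included Bex2, Hmgb3, Cnbp and Hmgb2. Cnbp (ENSMUSG00000030057, chromosome 6, 87842615 to 87851106, minus strand), a zinc-knuckle nucleic acid-binding protein, had 190.4, 167 and 178 CPM in WT low, 491, 479.7 and 487 in WT high, 212, 197 and 186 in KO low and 184, 158 and 132 in KO high polysomes. The low polysome ranges of the genotypes overlapped, and the high fraction lost its lead in every gradient (log2 change -1.79, SE 0.17, adjusted p = 1.6e-09). Hmgb2 (ENSMUSG00000054717, chromosome 8, 57511907 to 57515999, plus strand), a high-mobility-group protein that bends DNA, had 106, 70.3 and 97.2 CPM in WT low, 308, 329 and 348 in WT high, 192, 92.3 and 122 in KO low and 161, 125 and 132 in KO high polysomes (log2 change -1.78, SE 0.23, adjusted p = 1.74e-06). The ranges of the fractions did not overlap in WT and did in KO. Hmgb3, of the same family, had 8.46, 8.37 and 7.22 CPM in WT low, 21.4, 22.3 and 20.1 in WT high, 35.4, 12.5 and 14.2 in KO low and 9.92, 15.5 and 15.9 in KO high polysomes (log2 change -1.81, SE 0.39, adjusted p = 0.00109). Its highest KO low value comes from the library that stood apart, and without KO replicate 1 the change was -1.17 (adjusted p = 0.0141).

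Hist1h1b (ENSMUSG00000058773, chromosome 13, 21779883 to 21780625, minus strand), a linker histone, was lower in KO in both fractions, and more so in the high one. It had 227, 176 and 367 CPM in WT low, 575, 673 and 515 in WT high, 62.7, 58.6 and 68 in KO low and 53.9, 55.3 and 41.6 in KO high polysomes (log2 change -1.61, SE 0.26, adjusted p = 3.35e-05). Bex2 (ENSMUSG00000042750, chromosome X, 136066564 to 136068236, minus strand), an X-linked small protein, had 60.3, 61.6 and 46.7 CPM in WT low, 102, 99.8 and 76.1 in WT high, 36.3, 29.8 and 22.6 in KO low and 12.9, 12.7 and 13.8 in KO high polysomes. High exceeded low in each WT gradient and low exceeded high in each KO gradient (log2 change -1.83, SE 0.26, adjusted p = 4.69e-06). Sap30, a subunit of the SIN3 histone deacetylase complex, had 39.5, 44.1 and 31 CPM in WT low, 144, 114 and 102 in WT high, 43, 60.9 and 64.1 in KO low and 64.8, 50.6 and 47.6 in KO high polysomes, and the fractions overlapped in KO but not in WT (log2 change -1.69, SE 0.23, adjusted p = 2.84e-06). Rps27a, which encodes ubiquitin fused to a ribosomal protein, had 24.3, 16.5 and 31 CPM in WT low, 57.7, 41.5 and 41.1 in WT high, 19.4, 18.6 and 18.4 in KO low and 17.5, 12.1 and 7.58 in KO high polysomes (log2 change -1.73, SE 0.32, adjusted p = 0.00017). Processed copies of ribosomal protein genes make its counts uncertain.

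Of the other 5, Khdc3, a protein of the subcortical maternal complex, changed by -1.75 (adjusted p = 0.000583), and Ccnb1ip1, a ubiquitin ligase of meiotic recombination, by -1.68 (adjusted p = 0.000207). Mplkip changed by -1.61 (adjusted p = 2.52e-06) and Coq10a, a coenzyme Q-binding protein, by -1.60 (adjusted p = 0.00155). Rhox5, an X-linked homeobox gene, had 42.7, 51 and 56.3 CPM in WT low, 82.7, 97.7 and 107 in WT high, 3.69, 1.6 and 3.94 in KO low and 1.65, 2.17 and 1.61 in KO high polysomes. Its change of -1.62 (adjusted p = 0.0321) rests on few counts, and was -1.62 to -1.28 in the 5 settings that ended the call, namely with no filter, without the KO low polysome library 1, without WT replicate 2 and without KO replicate 1 or 3. Over the fits without 1 gradient, the changes of the 12 genes lay between -2.15 and -1.17, and each but Rhox5 kept its call. In 13 of the 24 genes, 7 higher and 6 lower, all WT and all KO gradients lay on opposite sides of equal CPM in both fractions. CPM is scaled within each library, so equal CPM in both fractions is not an equal split of a transcript.

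**Figure D3:**
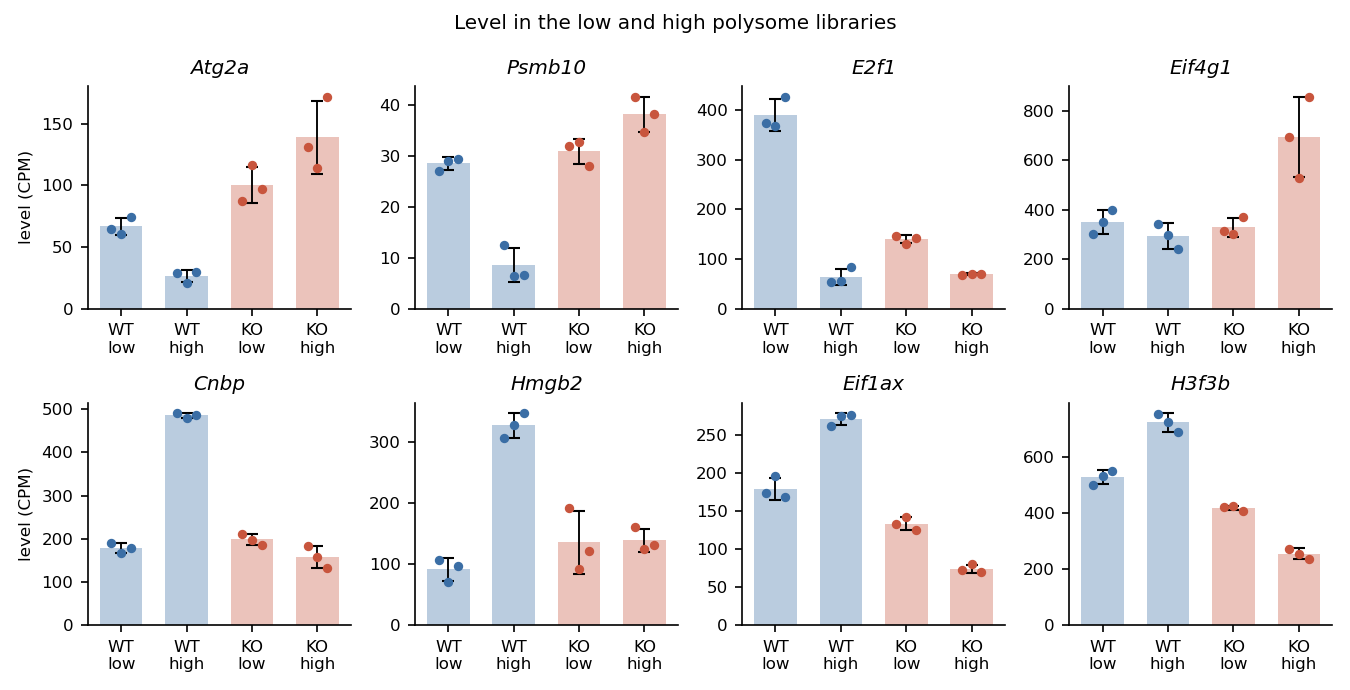
Level in CPM of 8 genes in the low and high polysome libraries of WT (blue) and Dgcr8 KO (red), with points for the 3 libraries, bars for their mean and error bars of 1 SD. In Atg2a and Psmb10 KO high polysomes stand over WT ones, in E2f1 the low polysome bar of KO is the one that differs, and in Cnbp, Hmgb2, Eif1ax and H3f3b the high polysome bar of KO is lower.

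The same genes were followed into the rest of the gradient in the same fit. For Cnbp, the change in the low polysome to monosome ratio was 0.22 and that in the high polysome to monosome ratio -1.57. For Atg2a these were 0.26 and 2.06, for Psmb10 -0.17 and 1.96, and for Hmgb2 0.62 and -1.16. For E2f1 they were -0.72 and 0.89, the low polysome change being on the other side of 0. These ratios share libraries with the high to low ratio and are given only as values.

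The change in ratio went with the length of the coding sequence. Genes that rose had a median CDS of 2829 nucleotides (nt), against 696 nt for those that fell and 1365 nt for all 11763 protein-coding genes with an annotated CDS (GENCODE M21). Across these genes, Spearman's rho between the change and CDS length was 0.43, a description, since genes share libraries and are not replicates. In single gradients, rho between the high to low ratio itself and CDS length was 0.13, 0.16 and 0.11 in WT and 0.45, 0.39 and 0.49 in KO cells, ranges that did not overlap. Other features gave smaller values for the change, from -0.01 for 5′ UTR length to 0.13 for the GC content of the 3′ UTR, with 0.09 for that of the CDS, 0.02 for 3′ UTR length and 0.01 for mean level. The value for CDS length was 0.39 to 0.44 over the fits without 1 gradient and 0.42 without KO low polysome library 1.

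When genes were split into deciles of CDS length, the median change was -0.26 in the shortest (78 to 525 nt), lowest in the second (-0.45, 525 to 735 nt), and rose from there to 0.44 in the longest (3417 to 100404 nt). The second decile held 4 genes that rose and 117 that fell, and the longest 98 and 1. Without KO low polysome library 1 these counts were 4 and 110, and 93 and 0. With total counts, where the median of all genes shifts by -0.20, the medians of the second and the longest decile were -0.65 and 0.24, and those of the seventh and eighth turned from 0.07 and 0.19 to -0.13 and -0.01. In the 3 WT gradients the median ratio itself was 0.24 to 0.33 in the sixth decile, 0.06 to 0.11 in the ninth and -0.26 to -0.07 in the longest. In the 3 KO gradients it was 0.21 to 0.28, 0.28 to 0.41 and 0.12 to 0.33, so that the genotypes overlapped in the sixth decile and not in the other two. Per fraction, the median KO against WT change was -1.13 in the shortest and 0.66 in the longest decile in high polysomes, and -0.85 and 0.19 in low polysomes.

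The shortest messages broke this order. Within the first decile, the 81 genes with a CDS of at most 225 nt had a median change of 0.35, with 5 that rose and 0 that fell in limma (adjusted p under 0.05 and absolute log2 change over 1). The 168 genes of 225 to 300 nt had a median of 0.06, the 262 of 300 to 375 nt -0.18, the 321 of 375 to 450 nt -0.45 and the 345 of 450 to 525 nt -0.38. The shortest of these leaned strongly to the low fraction in both genotypes, at a median log2 ratio of -2.17 in WT and -1.78 in KO. Their number is small beside the 1177 genes of the decile.

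**Figure D4:**
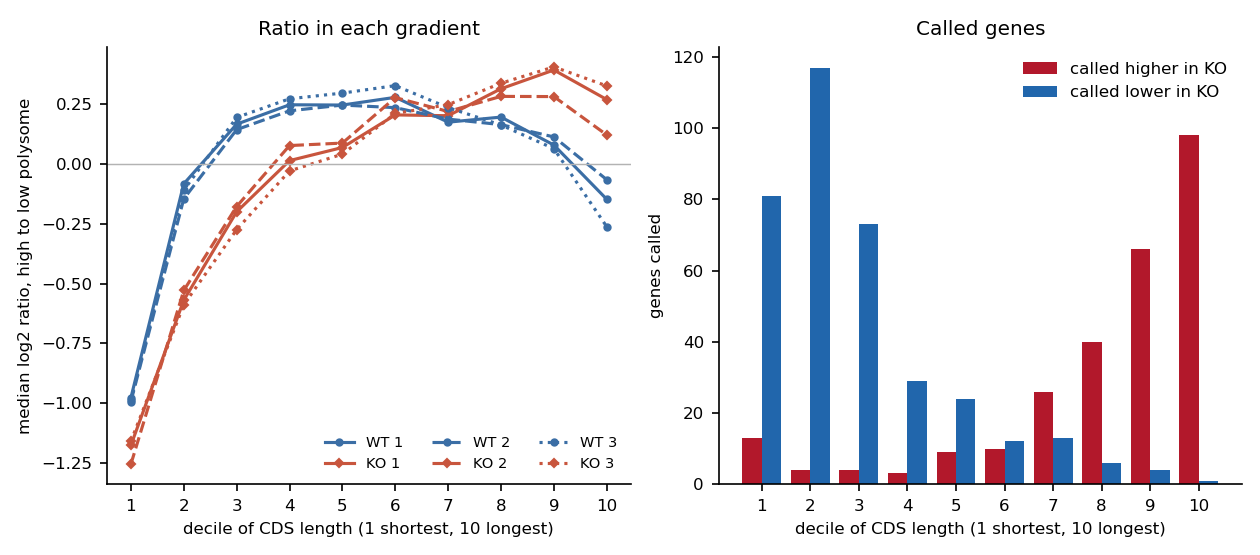
Left, median log2 high to low polysome ratio of protein-coding genes by decile of CDS length in each of the 3 WT and 3 KO gradients, and right, the number of genes called higher or lower in KO in each decile. The KO lines lie under the WT lines in the 5 shortest deciles and above them in the 3 longest, and genes called lower fall from 117 in the second decile to 1 in the longest while those called higher rise from 4 to 98.

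Gene groups are described by how many of their tested members passed the test, beside 2.29% higher and 2.89% lower in all genes, and by their median change beside -0.05 in all genes. Counts of members by sign stand beside 47.1% of all genes with a positive change. These counts carry no test of the group. Since the change went with CDS length, the median of the CDS decile that holds the group's median length is given where it helps. Groups whose median changes sign with total counts are named as such.

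The machinery of microRNAs itself showed no member past both thresholds in limma with all libraries. Of the 9 microRNA processing genes, Ddx17, a helicase of the DROSHA complex, changed by 0.86 (adjusted p = 0.000151) and Ran, the GTPase that drives export of precursors, by -0.59 (adjusted p = 0.00491), both under the fold threshold. All 7 Argonaute and TNRC6 genes had positive changes, from 0.33 to 0.68 (median 0.45, beside 0.30 for their CDS decile). Ago2, the Argonaute that can cut its targets, had 484, 518 and 602 CPM in WT low, 413, 483 and 597 in WT high, 299.7, 328 and 367 in KO low and 427, 478 and 577 in KO high polysomes, a change of 0.68 (adjusted p = 0.00489). Tnrc6a, a scaffold that recruits deadenylases, changed by 0.64 (adjusted p = 0.0164). Of 24 deadenylation and decapping genes (median -0.13), 3 passed the adjusted p upwards and 2 downwards, with Edc3, an enhancer of decapping, at 0.91 (adjusted p = 0.00284) and Cnot8, a deadenylase, at -0.88 (adjusted p = 0.00203). Upwards, 2 of the 24 passed both thresholds without KO low polysome library 1, Edc3 (1.10, adjusted p = 0.000409) and Edc4, a decapping scaffold named after its value was seen, and with total counts 1 passed downwards, Cnot8.

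The targets of the lost microRNAs were described by their sites. An 8mer site, AGCACTTA, occurred in the 3′ UTR of 392 of 11763 genes (3.33%), and a 7mer, AGCACTT or GCACTTA without the 8mer, in 1866 (15.9%). UTRs were those of 1 transcript a gene in GENCODE M21, searched on the strand of the transcript. The median change was 0.08 with an 8mer, 0.01 with a 7mer and -0.07 with neither. Of the 8mer genes, 16 rose and 11 fell (4.08% and 2.81%), close to the background in the downward direction. Relative to the median of their own CDS decile, the 3 medians were 0.08, 0.02 and -0.01. The difference between 8mer genes and genes with neither was -0.04, -0.03 and -0.10 in the WT gradients and 0.08, 0.01 and 0.04 in the KO gradients, which did not overlap. This difference was not matched for CDS length, whose median was 1515 nt with an 8mer and 1338 nt with neither. The part of length in it was not tested. In each fraction, levels of 8mer genes were higher in KO, with a median log2 change of 0.35 in low and 0.41 in high polysomes, against -0.01 and -0.11 for genes with neither.

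Sites in messages that moved are shown to let the sequence stand beside its values, with the 8mer in capitals. They were chosen among the genes with an 8mer and the smallest p-values among those called in each direction, plus 2 earlier reported targets, Smarcc2 and Tfap4, and Sec16a from the 12 higher genes.
Sec16a: cacctgcagacAGCACTTAaagccttggtg
Dnajc16: tttaagatggcAGCACTTAgtcctacccac
Hp1bp3: tgtgtttgtagAGCACTTAgaggtctgggg
Gatad2b: caaatgtattgAGCACTTAataaaggagca
Smarcc2: caagtttgaaaAGCACTTAagcacctactt
Tfap4: tttctcttttaAGCACTTAcatgggttggg
Cebpg: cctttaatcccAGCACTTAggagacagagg
The 8mers lie, on GRCm38, at chr2:26410043-26410050 (Sec16a, minus strand), chr4:141762622-141762629 (Dnajc16, minus), chr4:138242088-138242095 (Hp1bp3, plus), chr3:90359916-90359923 (Gatad2b, plus), chr10:128489811-128489818 (Smarcc2, plus), chr16:4545091-4545098 (Tfap4, minus) and chr7:35049991-35049998 (Cebpg, minus), each in a 3′ UTR.

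Dnajc16, a J-domain protein, had 24.7, 25.1 and 20.2 CPM in WT low, 30.8, 28.5 and 26.1 in WT high, 48.2, 43.6 and 58.9 in KO low and 146, 162 and 156 in KO high polysomes (log2 change 1.34, SE 0.22, adjusted p = 3.28e-05). Hp1bp3, a heterochromatin protein related to linker histones, had 97.3, 101 and 96.3 CPM in WT low, 45.2, 66.7 and 47.8 in WT high, 195, 205 and 186 in KO low and 238, 228 and 227 in KO high polysomes (log2 change 1.15, SE 0.18, adjusted p = 1.68e-05), and its change was 0.95 with total counts. Gatad2b, a subunit of the NuRD complex, had 79.7, 89.3 and 83.7 CPM in WT low, 88.2, 98.8 and 77.4 in WT high, 175, 157 and 173 in KO low and 337, 351 and 366 in KO high polysomes (log2 change 1.01, SE 0.17, adjusted p = 3.51e-05). In these 3 genes every KO library lay above all WT libraries of its fraction. The call of Gatad2b sits at the fold threshold, with 0.81 to 0.999 in the 5 settings that ended the call, namely with total counts, in edgeR, without WT replicate 3 and without KO replicate 2 or 3. The ratio of Cebpg, a bZIP transcription factor whose message carries the same 8mer, fell, with 32.1, 33.2 and 40.3 CPM in WT low, 51.9, 44 and 50.0 in WT high, 28, 27.6 and 28.6 in KO low and 16.9, 17.4 and 20.4 in KO high polysomes (log2 change -1.07, SE 0.23, adjusted p = 0.000968, and -0.97 without WT replicate 1). Impa2, an inositol monophosphatase and also a lower gene with an 8mer, changed by -1.04 (adjusted p = 1.42e-05), and by -0.998 without KO replicate 2 and -0.97 without the KO low polysome library 1. Of 16 targets named in earlier work, 4 passed the adjusted p alone upwards and 1 downwards, beside 7.52% and 10.3% of all genes. In limma 0 of the 16 passed both thresholds (median 0.23, against -0.16 in their CDS decile). Smarcc2, a subunit of the BAF remodelling complex, came nearest at 0.95 (adjusted p = 0.000419), and Tfap4, a bHLH transcription factor, changed by 0.81 (adjusted p = 0.00364).

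Calls among the translation machinery were few and went in both directions. Of 81 cytosolic ribosomal protein genes, whose counts are uncertain because of processed copies, 2 rose and 4 fell, with a median change of -0.38 (-0.26 in their CDS decile). Genes with a CDS of 450 to 525 nt, a range that holds their median length of 456 nt, also had a median of -0.38. Of the 81 genes, 65 had changes below 0. Rps4x (-1.30, adjusted p = 0.0122), Rpl30 (-1.21, adjusted p = 0.000564), Rps13 (-1.15, adjusted p = 0.0213) and Rps27a fell. The very short Rpl41 (1.25, adjusted p = 0.000277, CDS 78 nt) and Rps28 (1.08, adjusted p = 0.000981, CDS 210 nt) rose. Rpl41 had 674, 604 and 833 CPM in WT low, 95.6, 97.3 and 108 in WT high, 239.7, 163 and 149.5 in KO low and 46.3, 63.1 and 77.2 in KO high polysomes, and was low in high polysomes in both genotypes. These calls depended on single settings, with a change of 0.93 without KO replicate 3 for Rpl41, of 0.88 with total counts, 0.81 without KO replicate 3 and 0.90 without the KO low polysome library 1 for Rps28, of -0.93 without WT replicate 2 for Rpl30, of -1.08 without WT replicate 1, -1.10 without WT replicate 2 and -1.001 without KO replicate 3 for Rps4x and of -1.15 to -0.99 in the 4 settings that ended the call, namely with no filter, without WT replicate 1 and without KO replicate 2 or 3 for Rps13.

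Of 55 initiation factor genes, matched by symbol, 2 rose and 3 fell (median -0.18, beside -0.16 in their CDS decile). Eif1ax and Eif1a, 2 copies of the factor that scans with the small subunit, fell. Eif1ax had 174, 196 and 168 CPM in WT low, 261, 275 and 275 in WT high, 133, 142 and 124 in KO low and 71.8, 79.5 and 69.9 in KO high polysomes (-1.45, adjusted p = 2.36e-07). Eif1a had 106, 122 and 129 CPM in WT low, 199, 223 and 233 in WT high, 123, 128 and 148 in KO low and 92.2, 102 and 101 in KO high polysomes (-1.30, adjusted p = 2.32e-06). In both, high exceeded low in WT and low exceeded high in KO without overlap. Since these copies are alike, reads may be split between them. Eif4g1, the large scaffold of the cap-binding complex, rose, with 302, 351 and 399 CPM in WT low, 342, 297 and 241 in WT high, 312, 301 and 370.2 in KO low and 695, 529 and 856 in KO high polysomes (log2 change 1.33, SE 0.19, adjusted p = 7.25e-06). Only its KO high values stood above all others of these 12. Pabpc1, the poly(A)-binding protein, rose by 1.19 (adjusted p = 1.79e-05), with low polysome levels of 2079 ± 91 CPM in WT and 1171 ± 219 in KO (mean ± SD, n = 3) and overlapping high polysome levels, and its change was 0.99 with total counts. Eef2, the translocation factor of elongation, had 1912, 1553 and 1959 CPM in WT low, 963, 723 and 918 in WT high, 1078, 764 and 882 in KO low and 960.1, 772 and 1119 in KO high polysomes (1.13, adjusted p = 2.55e-05, and 0.93 with total counts and 0.98 without KO replicate 3), and its high polysome ranges overlapped too. Eif5a, which helps ribosomes through hard stretches, fell (-1.04, adjusted p = 1.14e-05, and -0.98 in DESeq2, -0.99 without WT replicate 3 and -0.89 without KO replicate 3). Of 23 tRNA synthetase genes (median 0.32, 0.07 in their CDS decile), 19 had changes above 0 and Qars, for glutamine, rose (1.11, adjusted p = 1.42e-05, and 0.91 with total counts), while Lars, for leucine, changed by 0.77 (adjusted p = 0.00258).

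Calls among histone genes were all downward. The 32 replication-dependent histone genes had a median change of -0.73, against -0.26 in their CDS decile. Genes with a CDS of 375 to 450 nt, a range that holds the median length of these histones, had a median of -0.45. Of the 32, 29 had changes below 0 and 5 fell, all of them linker histones. Besides Hist1h1b these were Hist1h1a (-1.36, adjusted p = 0.000444), Hist1h1c (-1.25, adjusted p = 0.000368), Hist1h1d (-1.56, adjusted p = 0.000554) and Hist1h1e (-1.04, adjusted p = 0.00109). Hist1h1c had 131, 117 and 199.9 CPM in WT low, 235, 258 and 173 in WT high, 121, 87.8 and 123 in KO low and 76.4, 71.1 and 62 in KO high polysomes. The fractions overlapped in WT, and low exceeded high in KO. The change was -0.97 without WT replicate 2 for Hist1h1a, -0.92 without WT replicate 2 for Hist1h1c and, for Hist1h1e, -0.997 in DESeq2, -0.68 without WT replicate 2 and -0.90 without KO replicate 3. Most replication-dependent histone messages end in a stem-loop without a poly(A) tail and are near-identical copies, so poly(A)-primed, uniquely aligned reads report them incompletely. Of 11 variants made outside S phase, H3f3b and H1f0 fell (median -0.66). H3f3b, which encodes histone H3.3, had 502, 535 and 551 CPM in WT low, 757, 728 and 689.8 in WT high, 421, 424 and 409.6 in KO low and 274, 255 and 235 in KO high polysomes (log2 change -1.17, SE 0.15, adjusted p = 1.2e-06). High exceeded low in WT and low exceeded high in KO, without overlap. H1f0, the replacement linker histone, changed by -1.14 (adjusted p = 0.000399), and by -0.99 without WT replicate 1.

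Calls among large chromatin regulators were upward. Of 27 remodellers and histone methyltransferases of large size, 24 had changes above 0 and 3 rose (median 0.46, beside 0.44 in their CDS decile). These were Kmt2b (1.17, adjusted p = 1.42e-05), a histone H3 lysine methyltransferase, Smarca4 (1.10, adjusted p = 4.1e-05), the ATPase of BAF complexes, and Chd8 (1.01, adjusted p = 0.000147), a chromodomain helicase. Kmt2b had 130.5, 115 and 116 CPM in WT low, 128, 102 and 104 in WT high, 152, 138 and 152 in KO low and 329, 258 and 333 in KO high polysomes, with KO high polysomes above all other libraries. The change was 0.97 with total counts for Kmt2b, 0.91 with total counts and 0.96 without KO replicate 3 for Smarca4 and 0.82 with total counts and 0.76 without WT replicate 3 for Chd8. Of 26 spliceosomal small nuclear ribonucleoprotein genes, 1 rose and 4 fell (median -0.29). Sf3b3, of long CDS (3654 nt), rose (1.31, adjusted p = 1.13e-05), whereas Sf3b6 (-1.41, adjusted p = 5.56e-07, CDS 378 nt), of the same SF3B complex, fell along with the Sm proteins Snrpb (-1.22, adjusted p = 1.42e-05), Snrpd3 (-1.07, adjusted p = 4.91e-06) and Snrpd1 (-1.01, adjusted p = 8.42e-05). Sf3b6 had 172, 188 and 175 CPM in WT low, 217, 228 and 239 in WT high, 136, 126 and 138 in KO low and 68.1, 60.6 and 64.3 in KO high polysomes, and every KO high value lay under every KO low value. The change was -0.99 without KO replicate 1 for Snrpd3, and for Snrpd1 it was -0.98 to -0.90 in the 6 settings that ended the call, namely with DESeq2 size factors, in DESeq2, without the KO low polysome library 1, without WT replicate 2 or 3 and without KO replicate 1. Of 43 replication genes, 3 fell, Gins4 (-1.15, adjusted p = 8.12e-05), Gins3 (-1.07, adjusted p = 0.0055) and Rpa3 (-1.18, adjusted p = 0.0179), of the GINS complex and of replication protein A, while the helicase subunit Mcm7 changed by 0.91 (adjusted p = 0.000298). Gins3 had a change of -0.90 without WT replicate 3, -0.91 without KO replicate 1 and -0.98 without the KO low polysome library 1, and Rpa3 -1.18 to -0.81 in the 6 settings that ended the call, namely in edgeR, in DESeq2, with no filter, without WT replicate 1 and without KO replicate 2 or 3.

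Mitochondrial proteins are encoded in both genomes. Of 7 messages made in mitochondria that were tested, 0 passed in limma (median 0.25), with mt-Nd5 at 0.58 (adjusted p = 0.0218) and mt-Nd1 at -0.49 (adjusted p = 0.0939). Of 77 nuclear genes of mitochondrial ribosomal proteins, 68 had changes below 0 and 5 fell (median -0.43, beside -0.45 in their CDS decile). They were Mrpl40 (-1.14, adjusted p = 3.91e-05), Mrpl55 (-1.14, adjusted p = 0.000446), Mrpl41 (-1.03, adjusted p = 0.00387), Mrpl21 (-1.02, adjusted p = 0.000111) and Mrpl9 (-1.01, adjusted p = 0.0014), all of the large subunit. Mrpl40 had 63.1, 57.8 and 53 CPM in WT low, 104, 108 and 94.3 in WT high, 50.1, 47.1 and 48.6 in KO low and 34, 38.2 and 44.1 in KO high polysomes. Its call was kept under every alternative tried, whereas the change was -0.91 without KO replicate 3 for Mrpl55, -0.92 without WT replicate 1 for Mrpl41, and for Mrpl21 -0.99 to -0.84 in the 5 settings that ended the call, namely with DESeq2 size factors, without the KO low polysome library 1, without WT replicate 1 or 2 and without KO replicate 1. For Mrpl9 it was -0.999 to -0.82 in the 6 settings that ended the call, namely with DESeq2 size factors, in DESeq2, without the KO low polysome library 1, without WT replicate 1 or 2 and without KO replicate 3. Of 79 nuclear-encoded respiratory chain genes, 3 fell and 1 rose (median -0.25). The ATP synthase subunits Atp5g3 (-1.17, adjusted p = 1.2e-06) and Atp5j (-1.12, adjusted p = 4.1e-05) and the complex I subunit Ndufc2 (-1.02, adjusted p = 5.85e-05) fell, and Ndufv3 (1.07, adjusted p = 0.000139), also of complex I, rose. Atp5g3 had 2350, 2635 and 2220 CPM in WT low, 2749, 2841 and 2831 in WT high, 1831, 1746 and 1644 in KO low and 971, 887 and 857 in KO high polysomes. High exceeded low in WT and low exceeded high in KO, without overlap. The other 3 had a change of -0.97 without KO replicate 3 (Atp5j), 0.87 with total counts and 0.98 without KO replicate 2 (Ndufv3) and, for Ndufc2, -0.99 to -0.93 in the 4 settings that ended the call, namely with DESeq2 size factors, in DESeq2, without WT replicate 2 and without KO replicate 3. Without KO low polysome library 1, 1 gene of this group rose and 6 fell.

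Among genes of protein turnover and redox, 30 of 34 proteasome subunit genes had changes below 0 and 1 fell (median -0.61, against -0.37 in their CDS decile). At the adjusted p alone 20 passed downwards and 0 upwards, beside 10.3% and 7.52% of all genes. Psmb6, a catalytic subunit of the core, had 327, 322 and 289.9 CPM in WT low, 584, 545 and 546 in WT high, 409, 341 and 319.5 in KO low and 306, 315 and 275 in KO high polysomes (-1.08, adjusted p = 1.43e-05, and -0.98 without the KO low polysome library 1). Psma2, of the outer ring, changed by -0.93 (adjusted p = 7.9e-05). Psmb10, which rose, belongs to the immunoproteasome and is not in this list. Of 8 subunits of the chaperonin TRiC, 0 passed both thresholds (median 0.27), with Cct3 at 0.62 (adjusted p = 0.0111) and Cct7 at 0.50 (adjusted p = 0.0272). Of 20 selenoprotein genes, whose messages recode a stop codon, 3 rose (median 0.28, against -0.45 in their CDS decile). Gpx1, a glutathione peroxidase, had 6286, 6407 and 6545 CPM in WT low, 789, 763 and 821 in WT high, 2483, 2514 and 2384 in KO low and 712, 628 and 531 in KO high polysomes (1.03, adjusted p = 4.91e-06). Low exceeded high in both genotypes, and both fractions were lower in KO. Selenoh had 551, 534 and 508 CPM in WT low, 87.8, 89 and 79.6 in WT high, 106, 100.3 and 84.9 in KO low and 44, 26.7 and 37.7 in KO high polysomes (1.19, adjusted p = 8.13e-05), in the same order. The changes were 0.83 with total counts and 0.93 without KO replicate 1 for Gpx1 and 0.99 with total counts for Selenoh. Txnrd3 (1.02, adjusted p = 0.0382) was borderline, at 0.81 to 1.01 in the 8 settings that ended the call, namely with total counts, with no filter, under a replicate block over shared numbers, without the KO low polysome library 1, without WT replicate 2 or 3 and without KO replicate 1 or 2. Without KO low polysome library 1 the median of the selenoprotein genes was 0.07 and 2 rose. Of 12 messages of polyamine and iron genes, 0 passed both thresholds (median -0.47), among them Azin1, the antizyme inhibitor, at -0.87 (adjusted p = 0.00147), and Tfrc, the transferrin receptor, at 0.73 (adjusted p = 0.00464).

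Most calls among matrix and transport genes were upward. Of 21 collagen and laminin genes, 20 had changes above 0 and 4 rose (median 0.70, beside 0.44 in their CDS decile). Of these, Lamb2 (1.21, adjusted p = 0.00017) and Lama5 (1.04, adjusted p = 0.000233) encode laminin chains and Col5a1 (1.35, adjusted p = 0.0192) a fibrillar collagen. Lamb2 had 33.5, 37.4 and 31.6 CPM in WT low, 31.2, 35 and 31.2 in WT high, 53.8, 58.3 and 52.8 in KO low and 111, 108 and 144 in KO high polysomes. The fractions overlapped in WT, and high exceeded low in KO. The laminin chain Lamc1 changed by 0.96 (adjusted p = 0.000125). Lama5 had a change of 0.84 with total counts, 0.93 without KO replicate 1 and 0.98 without KO replicate 3, and Col5a1 1.33 with no filter, 1.24 without WT replicate 2 and 0.92 without KO replicate 3. Without KO low polysome library 1, which held fibroblast collagen reads, 5 genes of the group rose and its median was 0.92. Of 187 solute carrier genes, 8 rose and 2 fell, with a median of 0.16 that turned to -0.04 with total counts. Slc12a7 (1.36, adjusted p = 1.2e-06) and Slc12a4 (1.04, adjusted p = 0.00023), potassium-chloride cotransporters, Slc9a8 (1.29, adjusted p = 1.49e-05), a sodium-proton exchanger, and Slc43a1 (1.32, adjusted p = 0.00111), an amino acid transporter, rose. Slc12a7 had 204, 198 and 193 CPM in WT low, 239, 216 and 220.4 in WT high, 206, 237 and 258 in KO low and 669, 554 and 826 in KO high polysomes, with KO high polysomes far above the rest. The change of Slc12a4 was 0.85 with total counts and 0.90 without WT replicate 3.

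The other 6 solute carriers called had SEs of 0.34 to 0.78. Slc23a4 rose (adjusted p = 0.0243), with 0, 2 and 3 counts in WT high and 31, 28 and 57 in KO high polysomes, so that its size is only bounded, and it lost its call in DESeq2 and without WT replicate 1 or 2. Slc24a1, with 4 to 23 counts a library, changed by -2.16 (adjusted p = 0.0123) (-2.18 in DESeq2, -2.03 without WT replicate 2 and -1.87 without KO replicate 3). Slc7a2, a transporter of basic amino acids, changed by 1.10 (adjusted p = 0.0207) and had a change of 0.89 to 1.09 in the 5 settings that ended the call, namely with total counts, with no filter, without WT replicate 2 or 3 and without KO replicate 3. Slc15a1, a peptide transporter, changed by 1.08 (adjusted p = 0.0376) and had a change of 0.88 to 1.21 in the 8 settings that ended the call, namely with total counts, with no filter, without the KO low polysome library 1, without WT replicate 1, 2 or 3 and without KO replicate 1 or 3. Slc30a10, of manganese export, changed by 1.35 (adjusted p = 0.0361) and had a change of 1.05 to 1.53 in the 8 settings that ended the call, namely with total counts, with no filter, in a fit of the 12 libraries alone, without WT replicate 1, 2 or 3 and without KO replicate 2 or 3. Slc25a32, a mitochondrial folate carrier, changed by -1.11 (adjusted p = 0.0393) and had a change of -1.19 to -0.58 in the 6 settings that ended the call, namely in DESeq2, with no filter, without WT replicate 1, 2 or 3 and without KO replicate 3.

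Of 55 motor genes, 2 rose and 0 fell in limma, Dnah10, an axonemal dynein (1.29, adjusted p = 0.0256), and Myo9b, a myosin (1.04, adjusted p = 0.0213), with a median of 0.16 (0.44 in their CDS decile) that turned to -0.04 with total counts. Dnah10 had a change of 0.95 to 1.29 in the 6 settings that ended the call, namely with total counts, with no filter, under a replicate block with each gradient as a term, without WT replicate 1 or 3 and without KO replicate 3, with an adjusted p of 0.0528 (limma) under the block. Myo9b had a change of 0.84 to 1.02 in the 5 settings that ended the call, namely with total counts, with no filter, without WT replicate 2 or 3 and without KO replicate 3. Myo18a changed by 0.97 (adjusted p = 0.000532) and Kif23, a kinesin of cytokinesis, by 0.81 (adjusted p = 0.00694). Of 19 genes of cholesterol synthesis and uptake, with a median of 0.05 that turned to -0.15 with total counts, Srebf2, a transcription factor of sterol genes, changed by 0.55 (adjusted p = 0.0187). Of 16 glycolytic genes, with a median of 0.17 that turned to -0.02 with total counts, Pfkp, a phosphofructokinase (1.24, adjusted p = 7.27e-05, and 0.97 without KO replicate 3), and Gpi1, glucose-6-phosphate isomerase (1.07, adjusted p = 1.54e-05), rose. Gpi1 had a change of 0.87 with total counts and 0.91 without KO replicate 3, and without KO low polysome library 1 the count was 4. Of 18 ATF4 target genes, with a median of 0.09 that turned to -0.11 with total counts, Shmt2, of mitochondrial one-carbon metabolism, rose (1.05, adjusted p = 0.000184, and 0.86 with total counts and 0.86 without KO replicate 3), and Cebpg fell. In this group 2 genes fell without KO low polysome library 1, Cebpg and Psph, an enzyme of serine synthesis named after its value was seen.

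Calls among genes of cell identity and the cell cycle were few, and downward with all libraries. Of 18 naive pluripotency genes, 15 had changes below 0 and 2 fell (median -0.33, beside -0.25 in their CDS decile). Pou5f1, which encodes OCT4, had 57.8, 50.2 and 73.8 CPM in WT low, 73.7, 71.4 and 56.4 in WT high, 43, 45.5 and 46.2 in KO low and 26.8, 29.2 and 20.4 in KO high polysomes (log2 change -1.005, SE 0.24, adjusted p = 0.0025). The genotypes did not overlap in either fraction, nor the fractions in KO. Its change sits at the fold threshold, at -0.98 to -0.78 in the 7 settings that ended the call, namely with DESeq2 size factors, in edgeR, in DESeq2, under a replicate block with each gradient as a term, without WT replicate 1 or 2 and without KO replicate 3. Dppa5a, an RNA-binding protein of ESCs, changed by -1.25 (adjusted p = 0.000827) and had a change of -1.10 in DESeq2 and -0.94 without KO replicate 3. Sox2 changed by -0.66 (adjusted p = 0.00137). Of 9 formative epiblast and germ layer genes, 0 passed in limma (median -0.31), with Pou3f1 at -1.16 (adjusted p = 0.0993) and the DNA methyltransferase Dnmt3b at 0.56 (adjusted p = 0.0501). The markers of other cells gave no call either with all libraries, with the trophoblast genes Krt8 and Eomes at 1.39 (adjusted p = 0.176) and -0.31 (adjusted p = 0.719), the fibroblast genes Col1a1 and Thy1 at 0.64 (adjusted p = 0.671) and -0.04 (adjusted p = 0.974), and the primitive endoderm gene Pdgfra at 0.02 (adjusted p = 0.99). Dab2, also of primitive endoderm, had 1, 2 and 1 counts in KO high polysomes, so that its size is only bounded (adjusted p = 0.659). When KO low polysome library 1 was left out, Krt8 passed both thresholds upwards (2.18, adjusted p = 0.0327), the median of the 2 fibroblast markers tested went from 0.30 to 0.84, and that of the 2 primitive endoderm markers tested turned from -0.38 to 0.26.

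Of 25 cyclin and cyclin-dependent kinase genes, a list that includes kinase inhibitors, 18 had changes below 0 and 2 fell, both inhibitors. The median of the 25 was -0.41, against -0.25 in their CDS decile. Cdkn2d had 123, 97.9 and 91.8 CPM in WT low, 99.1, 115 and 96.2 in WT high, 69.2, 62.5 and 55.4 in KO low and 36.7, 23.3 and 26 in KO high polysomes (-1.15, adjusted p = 0.000219, and -0.99 without WT replicate 2). Cdkn2b, with few counts, changed by -2.39 (adjusted p = 0.0298) and had a change of -2.37 to -1.48 in the 6 settings that ended the call, namely in edgeR, in DESeq2, with no filter, without WT replicate 2 and without KO replicate 2 or 3. Cdkn2a, of the same family, changed by -0.91 (adjusted p = 0.000506). Of 18 BCL2 family and p53 response genes, with a median of 0.05 that turned to -0.15 with total counts and to -0.05 without KO low polysome library 1, Pmaip1, the BH3-only protein NOXA, fell. It had 15.5, 12.8 and 17.8 CPM in WT low, 19.1, 18 and 21.7 in WT high, 62.1, 83.3 and 70.4 in KO low and 26.1, 46.3 and 49.2 in KO high polysomes (log2 change -1.21, SE 0.29, adjusted p = 0.00245). Both fractions were higher in KO, the low one by more. Bid, another BH3-only protein, changed by -0.92 (adjusted p = 0.00317). Without KO low polysome library 1 the count of this group was 2 that fell.

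Of 279 zinc finger genes with Zfp symbols, 3 rose and 7 fell (median -0.19), close to the background. Zfp335 (1.29, adjusted p = 0.000313) kept its call under every alternative tried, while Zfp367 (1.10, adjusted p = 0.00491) had a change of 0.90 with total counts, 0.98 without WT replicate 1 and 0.97 without the KO low polysome library 1, and Zfp407 (1.21, adjusted p = 0.0332) had a change of 0.88 to 1.35 in the 9 settings that ended the call, namely with total counts, in edgeR, in DESeq2, with no filter, without the KO low polysome library 1, without WT replicate 2 or 3 and without KO replicate 1 or 2. Zfp664 (-1.25, adjusted p = 0.000584) also kept its call under every alternative, Zfp428 (-1.08, adjusted p = 7.71e-05) had a change of -0.99 without KO replicate 1, Zfp260 (-1.37, adjusted p = 0.00913) had a change of -1.27 without WT replicate 2, and Zfp821 (-1.10, adjusted p = 0.0114) had a change of -0.97 without WT replicate 2 and -0.92 without KO replicate 3. Zfp948 and Zfp62 changed by -2.07 and -2.0, with SEs of 0.75 and 0.64. Zfp882 fell (adjusted p = 0.0146), with 1, 0 and 1 counts in KO high and 6, 6 and 6 in WT high polysomes, so that its size is only bounded, and it lost its call in DESeq2, without WT replicate 1 or 2 and without KO replicate 3. Zfp948 had a change of -2.21 to -1.68 in the 7 settings that ended the call, namely with DESeq2 size factors, in DESeq2, with no filter, without WT replicate 1 or 2 and without KO replicate 2 or 3, and Zfp62 had a change of -2.16 to -1.67 in the 7 settings that ended the call, namely in DESeq2, with no filter, without WT replicate 1, 2 or 3 and without KO replicate 1 or 3.

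Long noncoding RNAs (lncRNAs), most of which are not translated, served as a contrast to messages. Of 494 tested, 15 rose (3.04%) and 0 fell in limma. Their median change was 0.18 and turned to -0.02 with total counts, where 13 rose and 2 fell. Both genotypes kept them in the low fraction, with a median log2 ratio of -1.60 in WT and -1.45 in KO. Of the 494, 257 had all libraries of some group at 3 counts or fewer, and their median SE was 0.89 against 0.27 in protein-coding genes. Of 15 lncRNAs that host small nucleolar RNAs, 13 had changes above 0 and 2 rose (median 0.51). Zfas1 (ENSMUSG00000074578, chromosome 2, 167062934 to 167065862, plus strand) had 309.6, 296 and 327 CPM in WT low, 66.3, 72.4 and 79.3 in WT high, 205, 196 and 179 in KO low and 98.5, 89.2 and 91 in KO high polysomes (log2 change 1.03, SE 0.18, adjusted p = 8.94e-05). It was lower in KO in low and higher in high polysomes, without overlap. Epb41l4aos had 119.5, 136 and 122 CPM in WT low, 25.7, 30.3 and 25.2 in WT high, 52.2, 30.8 and 34.4 in KO low and 20.8, 17.1 and 23.7 in KO high polysomes (log2 change 1.33, SE 0.26, adjusted p = 0.000299). The change of Zfas1 was 0.84 with total counts, 0.97 without WT replicate 1 and 0.99 without KO replicate 3. Tmem134 has the symbol of a transmembrane protein gene and is in this set only because the annotation lists it as a processed transcript. It had 152, 133 and 147 CPM in WT low, 34.7, 23.4 and 26.1 in WT high, 43.6, 64.1 and 46 in KO low and 20.8, 24.9 and 22.5 in KO high polysomes (log2 change 1.23, SE 0.24, adjusted p = 0.000407). Of 11 nuclear and imprinted lncRNAs, 0 passed both thresholds (median 0.34), with Rian at 0.94 (adjusted p = 0.0246) and Firre, a nuclear RNA, at 0.65 (adjusted p = 0.138).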

How the data were processed

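RNA of low and high polysome fractions was read at 3′ ends (QuantSeq 3′ FWD) in 12 libraries, 3 in each of 4 groups taken from the sample titles. The deposited counts were made by the authors from uniquely aligned reads with Cutadapt 1.14, STAR 2.5.3a and featureCounts 1.5.3, counted by strand, on mm10 with GENCODE M14. No step for molecular identifiers is stated, so intervals of counting error do not apply to molecules. All 18 libraries, with monosomes, were fitted in limma 3.58.1 (voom; R 4.3.3) after TMM scaling in edgeR 4.0.16, with 1 mean for each of 6 groups and the interaction as a contrast, two-sided, with Benjamini-Hochberg adjustment over 12851 genes with at least 3 CPM in 3 libraries. Calls needed both an adjusted p below 0.05 and a log2 change beyond 1 in size. The model and filter follow the study's methods, and the thresholds are those of another comparison of the study. Adjusted p-values are from this limma fit unless another setting is named beside them. Ratios of single gradients use log2 CPM with a prior count of 2. On simulated counts for this comparison over 12851 genes, with 200 changed, 83% of changes of log2 2 and 65% of those of log2 1.5 were recovered, with 8 false calls. Recovery of smaller changes is not given, while the median change was 1.20 in genes called higher and -1.18 in those called lower. These rates therefore do not carry over to calls near the fold threshold.

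Genes and lists were chosen with earlier results of these data known. Named genes are Dgcr8, Ddx6, the 12 with the largest changes in each direction among called protein-coding genes or lncRNAs (mean of 50 or more counts, all KO gradients beyond all WT gradients, no group with all counts at 3 or fewer, predicted Gm genes passed over), in each list the 2 with the smallest p and every called member, the 3 lncRNAs with the smallest p, and the 3 higher and 3 lower called genes with an 8mer site and the smallest p. CDS and UTR features came from GENCODE M21, which matched 51274 of 51467 genes. Fractions with 1 number come from 1 gradient by design. Their high and low deviations correlated at 0.098, 0.032 and 0.039 in WT and 0.12, 0.13 and 0.054 in KO. Alternatives were other scalings, tools (DESeq2 1.42.0 and edgeR) and filters, blocks for the gradient, and leaving out each gradient in turn or KO low polysome library 1. The 92 spike-in entries were left out. Some genes that meet these rules are not reported here.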

Additional observations from a re-analysis of the deposited data

Results flagged for a closer look

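The change in the high to low ratio is itself a difference between genotypes, and 666 genes passed its test (limma, adjusted p under 0.05 and absolute log2 change over 1). CPM is scaled within each library, so equal CPM in both fractions is not an equal split of a transcript. In 13 of the 24 well-counted genes with the largest changes, the 3 WT and 3 KO gradients lay on opposite sides of equal CPM. Those that turned toward the high fraction were Npr1 (log2 change 2.14), Psmb10 (2.12), Tnks1bp1 (2.04), Ggcx (1.78), Ints1 (1.67), Rasa2 (1.53) and Sec16a (1.52). Those that turned toward the low fraction were Bex2 (-1.83), Cnbp (-1.79), Rps27a (-1.73), Ccnb1ip1 (-1.68), Hist1h1b (-1.61) and Mplkip (-1.61). All 24 had been chosen with separate genotypes. Reads counted on the 92 spike-in entries, which no comparison used, numbered 13 to 56 in a library. The study's methods name no spike-in, and the source of these reads was not tested. The gap of the farthest library to its group was not tested for single values, since groups of 3 libraries were left out of that check.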

How the results depend on the processing

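With total counts 122 genes were higher and 844 lower, and at the adjusted p alone 2288 passed, 967 higher and 1321 lower. Leaving out 1 gradient gave 512 to 823 called genes, 200 to 394 higher and 260 to 429 lower, and rho with CDS length of 0.3923 to 0.4354. The fewest were called without KO replicate 3. With no filter rho was 0.298, where 25635 genes enter. edgeR called 676 genes and DESeq2 590, of which 618 and 541 were shared with the 666, and DESeq2 gave 308 higher and 282 lower. With a replicate block, the counts were 695 (gradient as a term), 709 (gradient as a random effect) and 703 (shared number). Among named calls the replicate block ended only those of Dnah10 (1.27), Pou5f1 (-0.98) and Txnrd3 (0.998). The 110 named calls gave 1974 values under alternatives, of which 1772 kept the call, 202 lost it and 0 changed sign, with 35 lost without KO replicate 3, 28 without WT replicate 2 and 25 with total counts. The cause was not tested. Sign changed only in 4 marker genes of other cells that were not called. Col1a1 was -0.3001 in edgeR and -0.3000 in DESeq2. Pdgfra was -0.1536 with total counts, -0.2502 in edgeR, -0.2436 in DESeq2 and -0.1419 with a replicate block for the gradient, and ran from -0.5743 to 0.6116 over the fits without 1 gradient. In these fits Thy1 ran from -0.5088 to 0.6558 and Dab2, with few counts, from -1.951 to 0.1177, and Dab2 was 0.117 without KO low polysome library 1. List medians changed sign in 26 of 610 values, 7 of them with total counts. Depth limits lncRNAs most, since 257 of 494 had a group with all counts at 3 or fewer.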
